A study of Mus musculus with 6 samples.

Results

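Calcium handling by the kidney tubule was followed through 9 genes, taken by symbol from the 24422 genes counted in each library. The genes were Trpv5, Trpv6, Calb1, S100g, Slc8a1, Atp2b1, Atp2b4, Casr and Pth1r, and all 9 had enough reads to be tested. The libraries came from whole kidneys of C57BL/6 mice at postnatal day 13, all on a diet with 220 ppm iron. The 3 Control libraries carry the genotype label wild type. The 3 TfR1 knockout libraries carry the label Tfr1f/f;SixCre, which denotes floxed alleles of the transferrin receptor gene Tfrc and the Six2Cre transgene. Six2Cre is active in the progenitors that form the nephron from podocyte to connecting tubule. The collecting duct has another origin and is not a target of this Cre, and the study describes tubule cells at this age that escaped deletion. The study compared each model with wild type littermates, and the labels do not say which libraries share a litter or batch. Replicates are described as biological, so the p-values set a difference between the groups against variation between libraries. Where 3 values of a group are listed below, they stand in the order of the replicate numbers.

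Calcium is reclaimed along most of the nephron. In the proximal tubule and thick ascending limb it passes largely between cells, and in the distal convoluted and connecting tubule it is carried through them. There it enters from the urine through the channel Trpv5, and to a lesser extent Trpv6. It is then carried across the cell by the buffers calbindin-D28k (Calb1) and calbindin-D9k (S100g). It leaves toward the blood through the sodium-calcium exchanger NCX1 (Slc8a1) and the plasma membrane calcium pumps, which include Atp2b1 and Atp2b4. The calcium-sensing receptor (Casr) and the receptor for parathyroid hormone (Pth1r) adjust this transport, and active vitamin D raises transcription of the channels and buffers.

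Values are given as normalized counts, the reads of a gene divided by a size factor for the library. Total gene counts ran from 16591156 to 22898008 per library. Tfrc, the targeted gene, had 5534, 6485 and 3667 normalized counts in the Control libraries and 6976, 4045 and 5898 in the TfR1 knockout libraries. Its groups overlapped. Counts over the whole gene cannot show the loss of the floxed exons, so they do not check the labels. Control replicate 3 correlated less with Control replicates 1 and 2 (Pearson r = 0.969 and 0.970 across genes) than these did with each other (r = 0.987). The least alike pair within a group was TfR1 knockout replicates 1 and 2 (r = 0.953). TfR1 knockout replicate 3 correlated with these at 0.975 and 0.971. All 5 distal convoluted tubule markers fell at an adjusted p under 0.05 by DESeq2 (4 by edgeR), and their summed level was 12691 to 25970.0 normalized counts in Control and 1640.3 to 2936 in TfR1 knockout kidneys. The connecting tubule and principal cell markers summed to 27178 to 45750.2 in Control and 42834 to 76689 in TfR1 knockout kidneys, ranges that overlap. Much of this sum is Aqp2, at 2409 to 5747 in Control and 17805 to 50719 in TfR1 knockout libraries, so it does not stand for the list. By DESeq2 3 of 8 rose (1 by edgeR) while Klk1 fell. In whole kidneys, fewer cells of a type and less RNA per cell cannot be told apart. The part of these segment markers in the results for the calcium genes was not tested.

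By the DESeq2 Wald test at an adjusted p under 0.05, Trpv6 rose and S100g and Atp2b4 fell in TfR1 knockout kidneys. These are 3 of 9 members, beside 14.9% of all 16509 genes tested. The 1 higher member stands beside 7.74% of genes and the 2 lower members beside 7.18%. Trpv6 and S100g also changed at least 2-fold, as did 8.87% of genes. In edgeR's quasi-likelihood test 0 members passed, against 6.02% of genes, and 0 passed in limma-voom, against 6.15%. At an unadjusted p under 0.05 the count was 4 of 9 members by DESeq2, beside 22.8% of all genes. It was 3 of 9 by edgeR and by limma-voom, beside 25.8% and 26.0% of all genes. The same 3 genes had no overlap between the groups' libraries, and 33.7% of all genes had none, so this share of members is close to the background. The median log2 fold change was -0.26 over the members and 0.0071 over all genes tested.

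**Figure D1:**
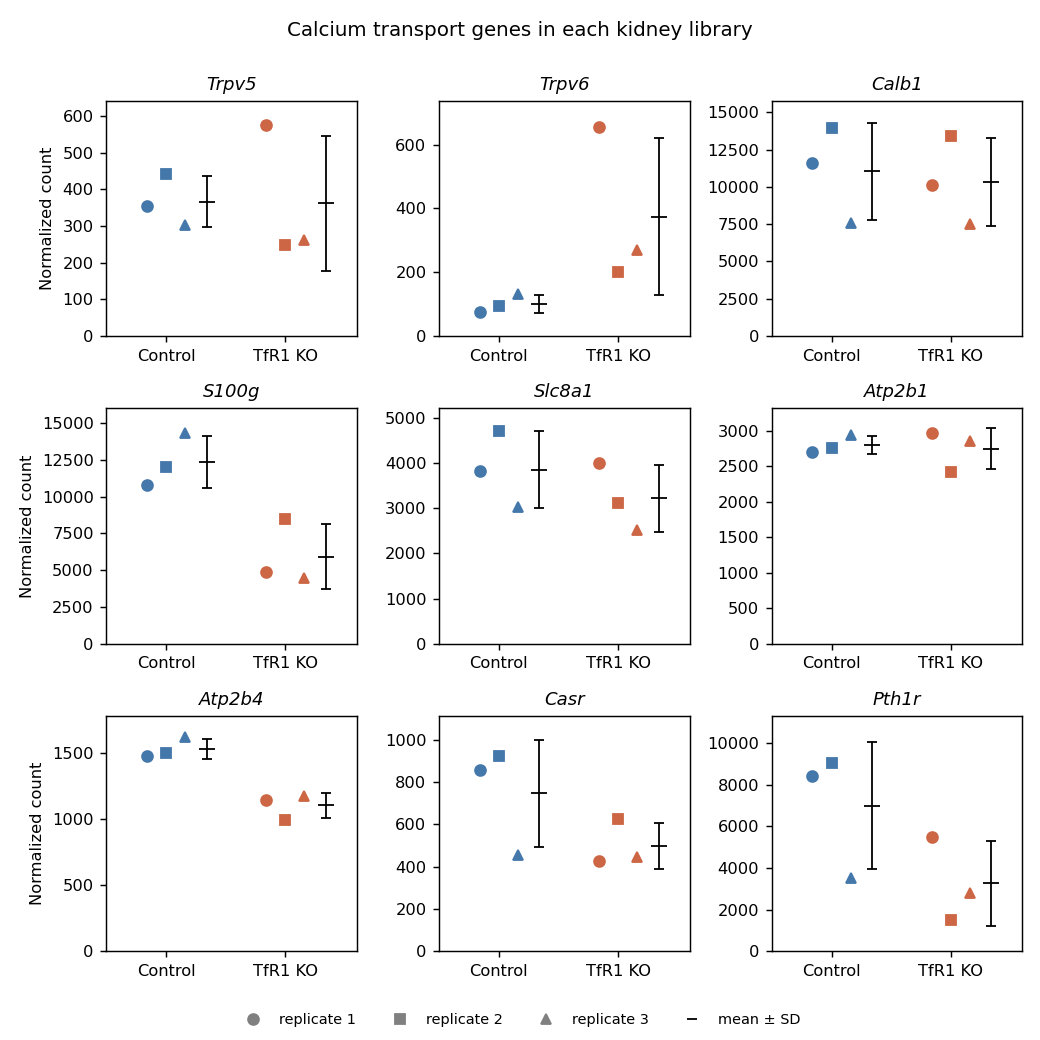
Normalized counts (y axis, from 0) of each calcium transport gene in the 3 Control and 3 TfR1 knockout libraries. Symbols mark the replicate number and bars the mean ± SD (n = 3). The groups do not overlap for Trpv6, S100g and Atp2b4, and overlap for the other 6 genes.

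The apical channels Trpv5 and Trpv6 are close relatives that lie in tandem on the reverse strand of chromosome 6 (mm9), Trpv6 at chr6:41570620-41586404 and Trpv5 at chr6:41602172-41630768, with 15767 bases between them. Trpv5 had 355, 441 and 302 normalized counts in the Control libraries. It had 575, 248 and 263 in the TfR1 knockout libraries. The means were 366 ± 69.9 and 362 ± 184 (SD, n = 3 each), with TfR1 knockout replicate 1 above every Control library and the other 2 below them. The log2 fold change of -0.02 did not pass the test (SE 0.37, 95% interval -0.74 to 0.71, DESeq2 adjusted p = 0.986). Its sign turned positive without Control replicate 2 (0.13) or TfR1 knockout replicate 2 (0.20) or 3 (0.17).

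Trpv6, which is better known as the calcium channel of the intestine, had 75.9, 95.4 and 130.2 normalized counts in the Control libraries. It had 654, 199.6 and 269.6 in the TfR1 knockout libraries. Every TfR1 knockout library was above every Control library, and TfR1 knockout replicate 1 stood far above the other 2. The mean rose from 100.5 ± 27.5 to 375 ± 245 (SD, n = 3 each), a log2 fold change of 1.90 (SE 0.46, 3.73-fold, DESeq2 adjusted p = 8.18e-04). Without TfR1 knockout replicate 1 the log2 fold change was 1.23 and still passed (DESeq2 adjusted p = 0.00525). In edgeR it was 1.89 with an adjusted p of 0.0594. Reads that fit both channels equally were left out by the unique counting, which can lower both counts.

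The promoter windows of both channels are shown because Trpv6 passed the test and its neighbour Trpv5 did not. RefSeq windows on the GRCm38.p6 build reach from 250 bases before to 50 after the start, and 8 of 9 members had one; Calb1 had none. Capitals mark AGGTCA, the half-site that the vitamin D receptor and other nuclear receptors bind, and TATAAA, the letters of a TATA box, each searched on both strands (TGACCT and TTTATA on the other), with no overlap between the 2 in these windows. The windows are chr6:41636356-41636655 for Trpv6 and chr6:41680674-41680973 for Trpv5, both on the reverse strand and written 5′ to 3′ along the gene.
Trpv6: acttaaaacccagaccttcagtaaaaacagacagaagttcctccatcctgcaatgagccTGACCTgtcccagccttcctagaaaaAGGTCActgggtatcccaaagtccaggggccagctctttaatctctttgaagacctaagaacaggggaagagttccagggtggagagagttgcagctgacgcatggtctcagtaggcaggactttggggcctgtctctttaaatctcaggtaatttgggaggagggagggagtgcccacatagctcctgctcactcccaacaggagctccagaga
Trpv5: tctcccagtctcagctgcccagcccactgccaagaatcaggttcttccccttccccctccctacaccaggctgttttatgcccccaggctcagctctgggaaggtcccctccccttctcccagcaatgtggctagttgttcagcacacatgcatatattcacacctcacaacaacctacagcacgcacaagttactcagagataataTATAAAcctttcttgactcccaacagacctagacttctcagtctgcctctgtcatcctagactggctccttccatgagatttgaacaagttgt
The Trpv6 window held AGGTCA 2 times, on opposite strands, and the Trpv5 window 0 times. Of all 32851 windows, 16.3% held AGGTCA at least once and 1.81% held it 2 or more times. The Trpv5 window held TATAAA at position -43 from the annotated start, as 13.6% of all windows held it anywhere, and the Trpv6 window did not. A match of letters is a description and does not show that a factor binds there.

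Of the calcium buffers, S100g fell and Calb1 did not pass the test. S100g, which lies on the X chromosome (chrX:159399924-159402531, reverse strand, mm9), had 10753, 12004 and 14290.4 normalized counts in the Control libraries. It had 4847, 8454 and 4448 in the TfR1 knockout libraries. All 3 TfR1 knockout libraries were below all 3 Control libraries. The mean went from 12349 ± 1794 to 5916 ± 2207 (SD, n = 3 each), a log2 fold change of -1.06 (SE 0.29, 2.09-fold lower, DESeq2 adjusted p = 0.00322). The call held without any one of the 6 libraries, and in edgeR the adjusted p was 0.0598.

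Calb1 (chr4:15808411-15835211, forward strand) had 11605, 13968 and 7571 normalized counts in the Control libraries and 10149, 13413 and 7498 in the TfR1 knockout libraries. The libraries of the groups overlapped over nearly their whole range, with replicate 3 lowest in each. The log2 fold change was -0.09 (SE 0.30, 95% interval -0.69 to 0.50, DESeq2 adjusted p = 0.879). It changed sign without Control replicate 2 (0.10) or TfR1 knockout replicate 3 (0.097). In the same kidneys all 5 distal convoluted tubule markers fell.

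The S100g window, shown because S100g was the other member that changed at least 2-fold, is chrX:162964550-162964849 on the reverse strand of GRCm38.p6. It carries the same capitals as the channel windows.
S100g: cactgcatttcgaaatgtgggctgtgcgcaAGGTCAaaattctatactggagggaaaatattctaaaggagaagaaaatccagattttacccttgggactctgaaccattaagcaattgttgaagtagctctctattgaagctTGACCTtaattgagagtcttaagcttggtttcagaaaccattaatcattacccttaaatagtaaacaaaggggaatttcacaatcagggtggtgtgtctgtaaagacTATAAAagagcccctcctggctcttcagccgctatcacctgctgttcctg
It held AGGTCA 2 times, on opposite strands, and TATAAA once, at the annotated start itself. A TATA box lies before the start of transcription, and the start used in these kidneys was not mapped. The windows of Slc8a1, Atp2b1, Atp2b4, Casr and Pth1r held neither run of letters. The Trpv6 and S100g windows each held AGGTCA 2 times. The part of these matches in the changes of the 2 genes was not tested.

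Of the proteins that carry calcium out of the cell, the pump gene Atp2b4 fell and Atp2b1 and Slc8a1 did not pass the test. Atp2b4 (chr1:135599255-135697618, reverse strand) had 1477, 1502 and 1620.0 normalized counts in the Control libraries. It had 1147, 993 and 1175 in the TfR1 knockout libraries. The groups were narrow and did not overlap. The log2 fold change was -0.47 (SE 0.15, 1.39-fold lower, DESeq2 adjusted p = 0.0187). The call was lost in 5 of 6 fits with 1 library left out and was kept only without TfR1 knockout replicate 1 (DESeq2 adjusted p = 0.0422), and in edgeR the adjusted p was 0.0656.

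Atp2b1, the pump found in most cell types (chr10:98377786-98488777, forward strand), had 2697, 2762 and 2934 normalized counts in the Control libraries and 2970.4, 2418 and 2856 in the TfR1 knockout libraries. The means of 2798 ± 123 and 2748 ± 291 (SD, n = 3 each) differed by less than the spread between libraries. Its log2 fold change had a 95% interval of -0.33 to 0.28 (DESeq2 adjusted p = 0.940) and turned positive without Control replicate 3 (0.0071) or TfR1 knockout replicate 2 (0.062). Slc8a1 (chr17:81785359-82048947, reverse strand) had 3827, 4723 and 3023 normalized counts in the Control libraries and 4008, 3120.5 and 2531 in the TfR1 knockout libraries. The groups overlapped, and the log2 fold change of -0.26 did not pass (SE 0.26, DESeq2 adjusted p = 0.547).

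Neither hormone-related receptor passed the test with all 6 libraries, and Control replicate 3 was the lowest Control library for both. Casr, which senses calcium outside the cell (chr16:36493782-36562227, reverse strand), had 858, 923 and 455 normalized counts in the Control libraries and 426, 623 and 445 in the TfR1 knockout libraries. Control replicate 3 lay among the TfR1 knockout libraries, and the other Control libraries lay above all of them. The log2 fold change was -0.58 (SE 0.32, DESeq2 adjusted p = 0.219) and became -0.84 without Control replicate 3 (DESeq2 adjusted p = 0.00827). Without any other library it did not pass (DESeq2 adjusted p = 0.132 to 0.587). Casr lies 3.86 Mb from Tfrc on the same chromosome.

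Pth1r, the receptor for parathyroid hormone in proximal and distal tubule (chr9:110624592-110649649, reverse strand), had 8439.8, 9048 and 3503 normalized counts in the Control libraries. It had 5481, 1501 and 2799 in the TfR1 knockout libraries. TfR1 knockout replicate 1 lay above Control replicate 3, so the groups overlapped. The log2 fold change was -1.10 (SE 0.48, DESeq2 adjusted p = 0.109). It passed without Control replicate 3 (-1.43, DESeq2 adjusted p = 0.0193) or without TfR1 knockout replicate 1 (-1.70, DESeq2 adjusted p = 0.00165). Without any other library it did not pass (DESeq2 adjusted p = 0.297 to 0.375), and it was -0.75 without TfR1 knockout replicate 2. In edgeR with all libraries the adjusted p was 0.223.

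**Figure D2:**
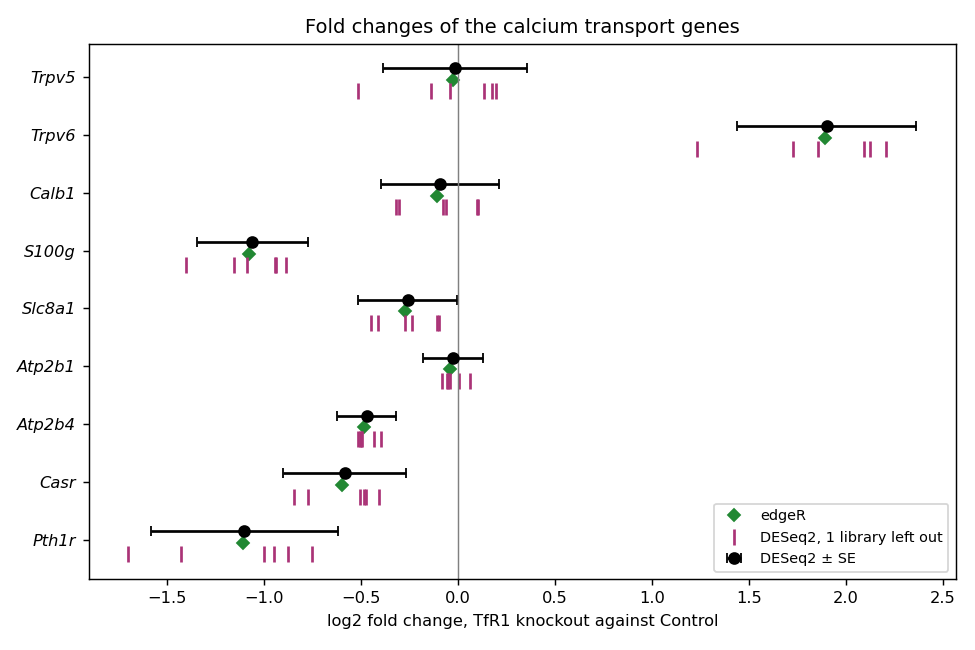
The log2 fold change of each gene, TfR1 knockout against Control (x axis). Black points with bars are DESeq2 estimates ± SE, green diamonds edgeR estimates, and purple ticks DESeq2 estimates with 1 of the 6 libraries left out. Trpv6 stayed between 1.23 and 2.21 and S100g between -1.41 and -0.89 over these fits, while the ticks of Trpv5, Calb1 and Atp2b1 fell on both sides of 0.

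To compare genes with each other, counts were divided by the exon length and the library total, giving CPM (counts scaled to a common library total) per kb of exon. On this scale S100g was the most abundant member in Control kidneys, with a level of 1383 ± 252 (SD, n = 3). Pth1r (135.9 ± 55.6), Calb1 (121 ± 31.3) and Slc8a1 (67.0 ± 12.3) followed. Lower levels were those of Atp2b1 (21.0 ± 1.72), Atp2b4 (9.11 ± 0.81), Casr (8.39 ± 2.60), Trpv5 (6.02 ± 0.93) and Trpv6 (1.84 ± 0.57). The libraries of neighbours in this order overlapped for Pth1r and Calb1, for Atp2b4 and Casr, and for Casr and Trpv5. With the exon lengths used, the buffers and the exchanger thus stood well above the channels, as counts per length.

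In TfR1 knockout kidneys S100g was still the most abundant, with a level of 601 ± 163 on the same scale. Calb1 (105 ± 21.2) stood next and Pth1r (61.1 ± 40.3) and Slc8a1 (52.3 ± 13.5) after it, with overlapping libraries. Trpv6 had a level of 6.48 ± 4.49, beside Atp2b4 (6.13 ± 1.06), Trpv5 (5.64 ± 3.12) and Casr (5.19 ± 0.64). The libraries of these neighbours overlapped, so their order is not resolved. Without TfR1 knockout replicate 1 the mean level of Trpv6 was 3.94 and that of Pth1r 39.4. Trpv6 was the least abundant member in every Control library.

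**Figure D3:**
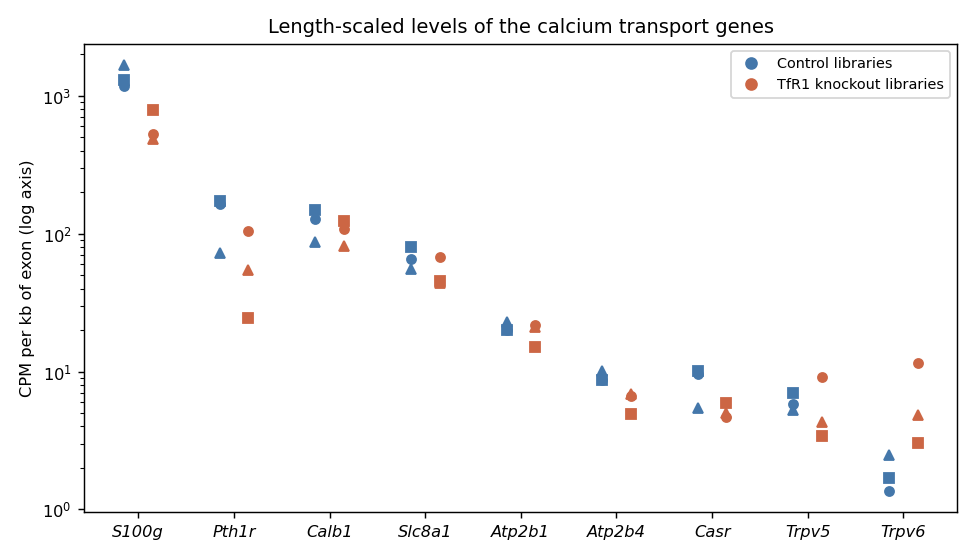
Levels of the 9 genes in CPM per kb of exon (y axis, log scale), 1 point per library, with circles, squares and triangles for replicates 1 to 3. Blue points are Control and orange points TfR1 knockout libraries. Trpv6 moves from the bottom of the order in Control libraries to the range of Trpv5, Atp2b4 and Casr in TfR1 knockout libraries.

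Ratios of normalized counts within a library do not depend on how libraries are scaled. For 7 ratios the groups were compared by a two-sided exact permutation test, in which 3 against 3 libraries cannot give a p below 0.1. The ratio of Trpv6 to Trpv5 was 0.214, 0.216 and 0.431 in the Control libraries and 1.14, 0.804 and 1.03 in the TfR1 knockout libraries. The ratio was thus higher in every TfR1 knockout library, near 1 in place of well below it, with a log2 difference of 1.85 (exact permutation p = 0.1, adjusted 0.117). The ratio of S100g to Calb1 was 0.927, 0.859 and 1.89 in Control and 0.478, 0.630 and 0.593 in the TfR1 knockout libraries (log2 difference -1.02, and -0.66 without Control replicate 3). The ratio of Atp2b4 to Atp2b1 was 0.548, 0.544 and 0.552 in Control and 0.386, 0.411 and 0.411 in the TfR1 knockout libraries (log2 difference -0.44). In each of these ratios the groups did not overlap, with the same p as for the channels. The ratio of Pth1r to Casr overlapped (log2 difference -0.64, exact permutation p = 0.6), and its difference was -0.0072 without TfR1 knockout replicate 2 and -1.22 without replicate 1.

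Members were also set against genes of the segments. Slc12a3, the sodium-chloride cotransporter of the distal convoluted tubule, went from 10736 to 21440 normalized counts in Control to 646 to 1636 in TfR1 knockout libraries. The ratio of Calb1 to Slc12a3 was 0.609, 0.651 and 0.705 in Control and 6.20, 14.0 and 11.6 in the TfR1 knockout libraries, a log2 difference of 3.94. For Trpv5 to Slc12a3 the log2 difference was 3.91. Nearly all of both differences is the fall of Slc12a3 itself (log2 fold change -3.98). Against Aqp2, the vasopressin-regulated water channel of the collecting duct, Calb1 moved the other way, from 2.02, 2.50 and 3.14 to 0.570, 0.264 and 0.318 (log2 difference -2.79). Nearly all of it is the rise of Aqp2 itself, whose log2 fold change of 2.74 was the largest of the 8 connecting tubule and principal cell markers. The median of that list was 0.18. By DESeq2, Aqp3 (log2 fold change 1.02) and Scnn1b (0.65) rose as well and Klk1 fell (-1.27). Aqp3 lost its call in 2 of 6 fits with 1 library left out and Scnn1b in 4 of 6. In edgeR their adjusted p was 0.0966 and 0.0945. Scnn1g (0.23), Avpr2 (0.13), Aqp4 (-0.17) and Hsd11b2 (-0.34) did not pass. The list thus moved unequally, and Aqp2 alone does not stand for the segment. The groups did not overlap in these 3 ratios, and each had the smallest p that the test allows.

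**Figure D4:**
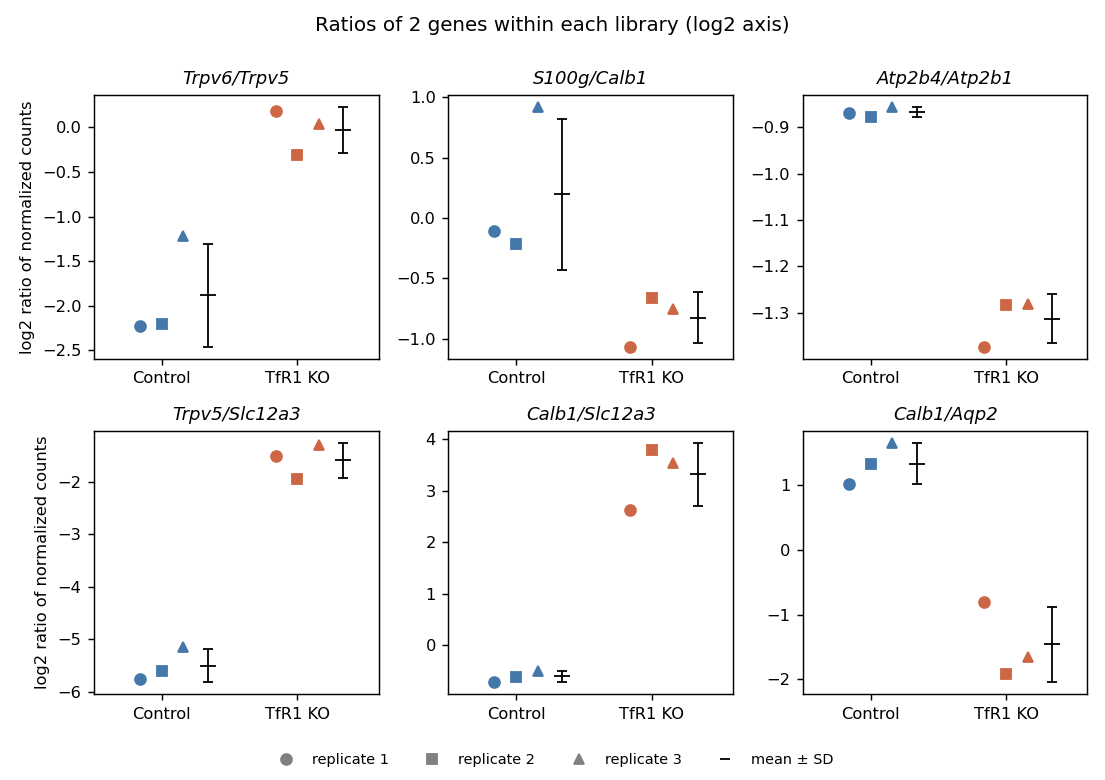
Ratios of pairs of genes within each library (y axis, log2 of the ratio of normalized counts). Symbols mark the replicate number and bars the mean ± SD (n = 3 per group). Trpv6/Trpv5 and the ratios to Slc12a3 are higher in every TfR1 knockout library, and S100g/Calb1, Atp2b4/Atp2b1 and Calb1/Aqp2 are lower.

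Of 13 genes of calcium hormones and their signalling, 12 were tested, 2 rose, 2 fell and 8 did not pass the DESeq2 test. These DESeq2 counts, and those of the lists below, stand beside 7.74% of all genes tested that rose and 7.18% that fell. The same numbers passed in edgeR, and the median log2 fold change was 0.21. Cyp24a1, the enzyme that inactivates vitamin D, had 223, 318 and 212 normalized counts in the Control libraries and 2353, 2103 and 1645 in the TfR1 knockout libraries, a rise of 3.02 on the log2 scale (SE 0.25, DESeq2 adjusted p = 1.64e-31, edgeR 0.00150). Cyp27b1, the enzyme that makes active vitamin D, had 721, 398 and 897 in Control and 2076, 5343 and 3807 in the TfR1 knockout libraries, a rise of 2.48 on the log2 scale (SE 0.40, DESeq2 adjusted p = 3.97e-08, edgeR 0.0195). Both enzymes rose, in all 3 TfR1 knockout libraries. Vdr, the vitamin D receptor, had a log2 fold change of 0.97 that did not pass (DESeq2 adjusted p = 0.0827).

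Kl, which encodes klotho, a coreceptor for FGF23, had 10841, 11484 and 4065 normalized counts in the Control libraries. It had 2941, 1585 and 2208 in the TfR1 knockout libraries, with no overlap (log2 fold change -1.97, DESeq2 adjusted p = 3.20e-05, edgeR 0.0382). Esr1, the estrogen receptor, fell as well (log2 fold change -1.89, DESeq2 adjusted p = 1.38e-06, edgeR 0.0221). The G protein subunit Gnas, through which Pth1r signals, missed the threshold (log2 fold change -0.37, DESeq2 adjusted p = 0.0526). Gnaq and Gna11, the subunits through which Casr signals, did not pass either.

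**Figure D5:**
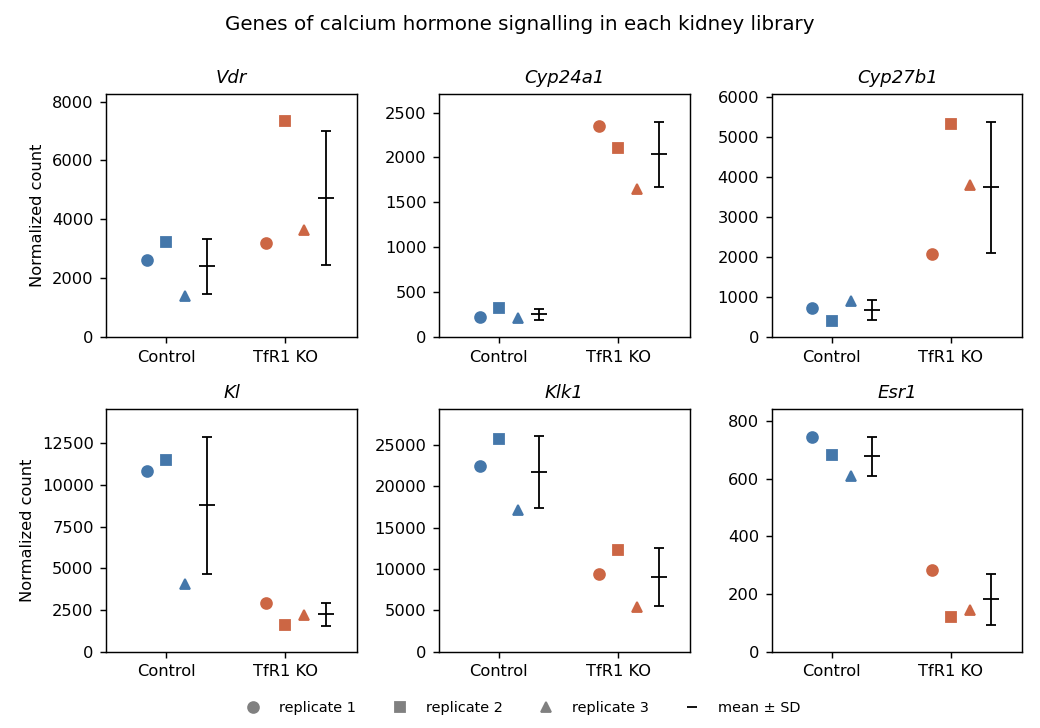
Normalized counts (y axis, from 0) of 6 genes of calcium hormone signalling and channel regulation in each library, with replicate symbols and the mean ± SD (n = 3 per group). Cyp24a1 and Cyp27b1 are higher and Kl, Klk1 and Esr1 lower in every TfR1 knockout library than in any Control library, and Vdr overlaps.

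Among 12 partners and regulators of the channels, 1 rose, 2 fell and 9 did not pass, with a median log2 fold change of -0.10. Klk1, tissue kallikrein, which keeps Trpv5 at the membrane, fell (log2 fold change -1.27, DESeq2 adjusted p = 0.00147), and in edgeR its adjusted p was 0.0593. Umod, uromodulin, which is made in the thick ascending limb and is also in that marker list, fell by 3.65 on the log2 scale (DESeq2 adjusted p = 1.16e-15, edgeR 0.0101). Sgk1, a kinase that raises channel activity, rose (log2 fold change 0.75, DESeq2 adjusted p = 0.0312), but the call was lost in 5 of 6 fits with 1 library left out and in edgeR (adjusted p = 0.117). The calmodulin genes, S100a10 and Anxa2, whose products bind the channels, did not pass.

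Of 11 relatives of the members in the same gene families, 7 were tested and 1 passed, with a median log2 fold change of -0.11. That gene was the pump Atp2b3, with 43.7, 6.36 and 5.38 normalized counts in the Control libraries and 0.994, 1.28 and 1.89 in the TfR1 knockout libraries. The call rested on few reads and was lost without Control replicate 1, the one high library, and without any TfR1 knockout library. Slc8a2, Slc8a3 and Atp2b2, the other exchangers and pump, stayed under 100 normalized counts in every library and did not pass.

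Of 14 genes of paracellular calcium and magnesium transport, 0 rose and 6 fell, with a median log2 fold change of -0.57. The 6 were Cldn16 (log2 fold change -1.52) and Cldn19 (-1.47), which form the cation pore of the thick ascending limb, the claudin Cldn10 (-2.02), the magnesium channel Trpm6 (-2.07), Egf (-4.74) and Pvalb (-6.42). All of these but Cldn19 also passed in edgeR, and Cldn16, Cldn19, Trpm6 and Pvalb are in the segment marker lists as well. Cldn2, the calcium pore of the proximal tubule, had a log2 fold change of -0.31 that did not pass (DESeq2 adjusted p = 0.470). Of 13 genes of intracellular calcium stores and store-operated entry, 1 rose and 0 fell. That gene was Itpr3, an inositol trisphosphate receptor of the endoplasmic reticulum, with 649 to 722 normalized counts in Control and 1732 to 2389 in TfR1 knockout libraries (log2 fold change 1.64, DESeq2 adjusted p = 2.58e-15, edgeR 0.00389). Across the pathway lists both vitamin D enzymes were higher and 6 of 14 paracellular and magnesium genes lower. Over all genes tested, 7.74% rose and 7.18% fell by DESeq2.

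The remaining markers gave the cell types beside which these values stand. Of the thick ascending limb markers 5 of 6 fell by DESeq2 (3 by edgeR), and of the proximal tubule markers 3 of 8 fell and 1 rose (1 and 1 by edgeR). Of these, Slc12a1 lost its call in 3 of 6 fits with 1 library left out. Aqp1, whose groups overlapped, lost it in 4 of 6. Of the macrophage markers 5 of 6 rose (4 by edgeR), from a summed level of 2161 to 3370.2 in Control to 6238 to 7682 normalized counts in TfR1 knockout kidneys. In the podocyte list 1 of 5 rose (1 by edgeR). In the endothelium list 1 of 6 rose (0 by edgeR), and that gene, Flt1, lost its call in 4 of 6 fits with 1 library left out. In the smooth muscle list 1 of 6 fell (0 by edgeR). In the red cell list 1 of the 3 tested genes fell (1 by edgeR), and Hba-a1 and Hbb-b1 were listed at 0 in all 6 libraries. The part of these cell types in the changes of the calcium genes was not tested.

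The genes whose profile over the 6 libraries was nearest to each changed member were found among 12113 genes whose mean reached 100 normalized counts, by the root mean square difference of centred log2 values. For Trpv6 they were Itgb2 (0.235), Runx1 (0.261) and Emilin2 (0.264). For S100g they were Spp2 (0.151), 3632451O06Rik (0.171) and Ctsl (0.181). For Atp2b4 they were Kif3a (0.037), Nt5c3b (0.039) and Sgk3 (0.048). Their direction follows from the way they were chosen. The distances over 6 libraries describe likeness of values and nothing more.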

How the data were processed

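Poly-A RNA from 6 whole kidneys was sequenced from single ends with a kit that does not mark strand, so overlapping and antisense genes cannot be told apart. Per the submitters' processing notes and the study's methods, reads were made with CASAVA 1.8.2, trimmed with Trimmomatic and aligned with TopHat2 2.0.11 to mm9, and the authors deposited raw HTSeq counts of uniquely aligned reads for each gene, not normalized. All sample columns were matched to labels (0 unmapped).

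Counts were tested with DESeq2 1.42.0 in R 4.3.3 (Wald test, median-ratio size factors, Benjamini-Hochberg adjustment over 16509 genes, no covariate), the tool of the study. Normalized counts are counts divided by the size factor. edgeR 4.0.16 (quasi-likelihood, TMM), limma 3.58.1 with voom, other scalings and filters, a block for the replicate number, and fits without 1 library were alternatives. The code was tested on simulated data. Positions and exon lengths are those of GENCODE for mm9. Depth leaves counting error small for all members but the channels and Casr, which had 423 to 1041 reads, and 3 libraries per group limit the precision. Genes named are the members, the listed pathway and marker genes, Slc12a3, Aqp2, Tfrc and the 3 nearest profiles of each changed member. The members and lists were chosen with earlier results of these data known.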

Additional observations from a re-analysis of the deposited data

How the results depend on the processing

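The count of genes past the threshold was 2463 (1277 higher, 1186 lower) by DESeq2, 921 (493 higher, 428 lower) by edgeR and 941 (485 higher, 456 lower) by limma-voom. With 1 library left out it ranged from 1239 (without Control replicate 1) to 3205 (without TfR1 knockout replicate 1), with 664 to 1531 higher and 575 to 1674 lower. Size factors from total counts shifted the median log2 fold change of all genes to -0.097 and gave 996 higher and 1407 lower genes, and no member changed direction under any scaling. Of the members, 0 passed in edgeR and limma-voom (0 higher, 0 lower), where the log2 fold changes were 1.89 and 1.78 for Trpv6, -1.08 and -1.12 for S100g, and -0.49 and -0.49 for Atp2b4. With 1 library left out 2 to 4 members passed, 1 higher in each fit and 1 to 3 lower: Atp2b4 was lost without any Control replicate and without TfR1 knockout replicate 2 or 3, and Casr and Pth1r were gained as the report states. The log2 fold changes then ranged from -0.52 to 0.20 for Trpv5, -0.32 to 0.10 for Calb1, -0.084 to 0.062 for Atp2b1, -0.52 to -0.40 for Atp2b4, -0.84 to -0.41 for Casr and -1.70 to -0.75 for Pth1r, and from -0.095 to 0.30 for Tfrc, which was negative without TfR1 knockout replicate 1 (-0.072) or Control replicate 3 (-0.095). The cause of these shifts was not tested.

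Same-numbered libraries had correlations of their deviations of 0.015, 0.066 and 0.155, and the numbers were treated as names only. A block for the replicate number gave 1085 higher and 1087 lower genes, and 1 member fell in place of 2, Atp2b4 having a log2 fold change of -0.48 (DESeq2 adjusted p = 0.129). By these deviations, TfR1 knockout replicate 1 correlated best among the Control libraries with Control replicate 2 (0.045), not with its own number. TfR1 knockout replicates 2 and 3 correlated best with the Control libraries of their own numbers. Ratios kept their direction and levels per length moved by less than 1 SD under the alternatives run, with Pth1r to Casr between -1.22 and -0.0072 and the TfR1 knockout level of Trpv6 between 3.94 and 8.21 with 1 library left out. Counts for the channels, at 92 to 658 reads for Trpv6, are the most limited by depth.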
